A study of Mus musculus with 4 samples.

Results

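LLC, titled 3LL in the labels, is the Lewis lung carcinoma line, an established mouse tumor line that the labels describe as lung carcinoma of strain C57BL6. Cells received vehicle or interferon gamma (IFN-γ) for 24 h, and total RNA of each condition was hybridised to 1 Agilent whole mouse genome array. The comparison below is therefore the LLC IFN-γ array against the LLC vehicle array, 2 of the 4 arrays of the series. The other 2 arrays hold AB1-HA, a mesothelioma line of strain BALB/c, under the same conditions and on the same slide. The series title gives the aim as finding a regulator that restrains IFN-γ-induced factors in tumor cells. The IFN-γ dose, the vehicle's composition and whether cultures were pooled are not given in the sources used here. With 1 array per condition there was no replicate, no difference below has a replicate check, and none was tested. Members were genes named through RefSeq with a probe well above background, by the scanner's mark, on at least 1 LLC array. This held for 13453 of 20140 genes with a named probe, and 13435 of them had a value.

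IFN-γ is secreted by T cells and natural killer cells and puts the cells it reaches on an antimicrobial footing. It binds a receptor of the Ifngr1 and Ifngr2 chains, whose kinases Jak1 and Jak2 activate STAT proteins that bind GAS elements in promoters. The first genes switched on encode transcription factors such as Irf1, which then act through interferon-stimulated response elements (ISREs) on a second layer of targets. Among those targets are GTPases that attack vacuoles of intracellular pathogens, the machinery that loads peptides on MHC class I, chemokines for T cells, and feedback inhibitors.

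Signals are background-subtracted intensities scaled so that both LLC arrays had the same 75th percentile, 1496 units. Differences are IFN-γ minus vehicle on the log2 scale, and a fold is the same quantity unlogged. Genes are called higher or lower from 2-fold on, a rule of size alone. A gene not well above background on 1 array has a bound, written "at least". On the 2 arrays, 58.1% (vehicle) and 57.9% (IFN-γ) of 39429 gene probes were well above background, and no spot was saturated. Repeat spots of the same probe gave differences with a median SD of 0.041 (263 probes), which covers spot noise alone. Bulk RNA cannot separate a lower RNA level per cell from fewer cells that carry the RNA.

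Large differences lay on the higher side and were concentrated in a small set of genes. At least 2-fold higher with IFN-γ were 497 genes, 3.70% of those with a value, and at least 2-fold lower were 197, or 1.47%. That split was 407 to 327 with array median scaling, 424 to 285 with quantile normalization and 343 to 494 with scaling to spike-in controls. At 4-fold the counts were 193 higher (1.44%) and 10 lower (0.0744%), and 74 genes were at least 16-fold higher (0.551%) with none 16-fold lower. With both arrays set to the same 75th percentile, a middle near 0 follows largely from the scaling. The median difference over all genes was −0.059, the 25th and 75th percentiles were −0.25 and 0.18, and 85.6% of genes lay within 1.5-fold. That median was −0.20 with array median scaling and −0.35 with scaling to spike-in controls. Of the 74 genes past 16-fold, 34 (45.9%) were not above background on the vehicle array, and the median signal of the 74 went from 17.3 to 2730.4. Folds and bounds from such dim signals are sizes under the reported processing: normexp background correction put Batf2 at 8.58 in place of 11.53 on the log2 scale, Gbp7 at 5.56 in place of 9.68 and Ccl5 at 4.26 in place of 7.17.

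**Figure D1:**
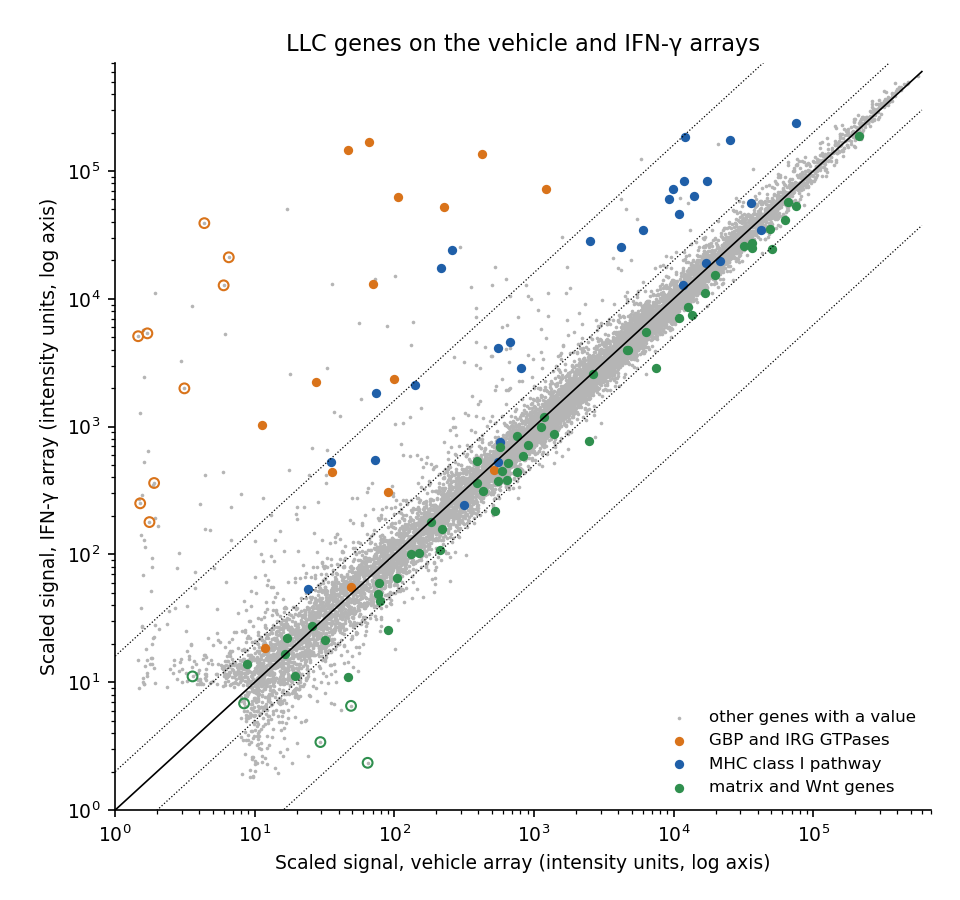
Scaled signal of each LLC gene with a value on the vehicle array (horizontal, log axis) and on the IFN-γ array (vertical, log axis), 1 array each. Filled points were measured on both arrays and open coloured points are bounds; the solid line marks equal signals and dotted lines mark 2-fold and 16-fold. GTPase genes lie far above the line, class I genes above it across the whole range of signals, and most matrix and Wnt genes on or below it.

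At the head of the pathway, the receptor and its kinases differed little while 3 of the signal carriers were higher. The receptor chains had signals of 5817 (vehicle) and 4367 (IFN-γ) for Ifngr1, a difference of −0.41, and of 2645 and 2166 for Ifngr2 (−0.29). The kinases Jak1 (24249.8 and 21497) and Tyk2 (699 and 641) were lower by less than 1.5-fold, and Jak2 was 1.38-fold higher (4483 and 6164). Stat2, which joins Irf9 in the complex that binds ISREs, had signals of 1263 and 11068, a gain of 8.76-fold. Irf9 itself went from 766 to 7183 (9.38-fold), and Stat3, the carrier of IL-6 family signals, from 3063 to 9737 (3.18-fold). Stat4 was at least 4.21-fold higher, but at a signal of 27.6 on the IFN-γ array, and normexp put it under 2-fold. The receptor and JAK-STAT list had a median of −0.13 over 15 genes, 4 of which passed 2-fold on the higher side and none on the lower. The receptors of type I interferon (Ifnar1 −0.21, Ifnar2 0.48), Jak3 (0.079) and the STAT genes Stat5a (−0.15), Stat5b (−0.31) and Stat6 (−0.15) stayed within 2-fold.

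Transcription regulators downstream of the STATs held some of the largest values. Irf1, the primary factor of this response, was bright already with vehicle at 5794 and reached 124888 with IFN-γ, a gain of 21.6-fold. A second Irf1 probe gave 1.71 on the log2 scale against 4.43 for the probe used. Batf2, a basic leucine zipper factor that partners with Irf1, went from 17.1, near background, to 50570.5, or 2959-fold. Nlrc5, the activator of MHC class I genes, went from 629 to 14244 (22.7-fold, with a log2 difference of 2.30 by another probe). Irf8 went from 1213 to 4936 (4.07-fold) and Irf7 was at least 37.4-fold higher, from 4.07 to 246. Nmi (6.77-fold) and Ifi35 (3.91-fold), which encode partners in a cytosolic complex, were higher together. Irf5 was 2.46-fold and Batf3 2.21-fold higher, the latter short of 2-fold under array median scaling. The list held 18 regulators with a value, of which 9 passed 2-fold on the higher side and none on the lower, and the median was 0.86. Irf2 (0.54), Irf3 (−0.18), Batf (−0.040), Rfx5 (−0.007), Rfxap (−0.32) and Rfxank (−0.40) were within 2-fold. Ciita, the class II transactivator, and Irf4 were below the background mark on both LLC arrays.

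Among 19 negative regulators of the pathway, 2 passed 2-fold, both on the higher side. Socs1, which blocks the JAK kinases, went from 3692 to 20784 (5.63-fold), and Usp18, the protease that removes ISG15 and restrains the type I receptor, from 33.1 to 654 (19.8-fold). Socs3 (0.74), Socs2 (−0.78), Socs5 (−0.55), the phosphatases Ptpn1 (−0.36), Ptpn2 (−0.020), Ptpn6 (−0.11) and Ptpn11 (−0.020), and Pias1 to Pias4 (from −0.52 to 0.057) were within 2-fold. The list median was −0.020, close to that of all genes, and its sign turned under other scalings.

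The guanylate-binding proteins (GBPs) and immunity-related GTPases (IRGs), which coat and disrupt pathogen vacuoles, held the largest single values of all lists. Among 10 GBP genes that had a value, 9 passed 4-fold, and the median was 7.29. Of the 10, 5 were measured on both arrays, with a median of 4.56. The others had a value only through the IFN-γ array. Gbp2 went from 66.3 to 167597 (2526-fold), and Gbp3 from 4.35, not above background, to 39085, at least 5956-fold. Next came Gbp4 (at least 3219-fold), Gbp7 (at least 818-fold), Gbp5 (at least 303-fold), Gbp9 (80.4-fold), Gbp8 (at least 55.1-fold), Gbp6 (23.7-fold) and Gbp10 (12.4-fold). Another Gbp6 probe gave 9.22 on the log2 scale against 4.56, so its place in that order rests on the probe. Gbp2b stood apart at 11.9 and 18.6, a difference of 0.64. Among 14 IRG genes that had a value, 12 passed 2-fold, and the median was 7.03. It was also 7.03 over the 10 measured on both arrays. Tgtp2 went from 46.8 to 145958 (3116-fold, and 6.45 on the log2 scale by another probe), Igtp from 421 to 137074 (325-fold), Irgm2 from 225 to 52634 (234-fold) and Irgm1 from 1215 to 72234 (59.4-fold). Irgq (−0.17) and Gm5431 (0.19) were within 2-fold. These genes have near-identical copies, so single members are uncertain for cross-hybridisation.

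Promoters of 5 IRG genes carried both elements of the pathway in the same arrangement. In the 300 bases around each start of the RefSeq promoter table (build GRCm38.p6, 250 before and 50 after), GAS was searched as TTCNNNGAA and ISRE as GAAA, any 2 bases, GAAA, on both strands. The table held promoters of 10702 genes with a value. A GAS followed after 2 bases by an ISRE on the same strand, a pattern looked for after the IRG sequences had been seen, was present in 5 of all 32851 promoters. All 5 belong to IRG genes at least 16-fold higher in LLC under the reported processing: Tgtp1, Tgtp2, Igtp, Irgm2 and Gm12185. Of these, Gm12185 had a value only through the IFN-γ array (1.76 to 179). The lowest log2 values under the alternatives were 1.35 for Gm12185 and 2.94 for Tgtp1, both under 16-fold. These genes are related copies of 1 family, so their promoters are not independent cases. The 100 bases before the start of 3 of them are shown with matches in capitals, followed by 3 genes of other types: Gbp2 with an ISRE, Irf1 with a GAS, and Socs1 with overlapping ISREs.
Tgtp2, chr11:49064213-49064312, minus strand: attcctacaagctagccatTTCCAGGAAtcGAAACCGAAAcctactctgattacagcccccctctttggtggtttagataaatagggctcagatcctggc
Igtp, chr11:58199456-58199555, plus strand: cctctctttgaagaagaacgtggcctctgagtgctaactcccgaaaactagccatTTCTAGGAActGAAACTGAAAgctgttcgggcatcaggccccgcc
Irgm2, chr11:58214877-58214976, plus strand: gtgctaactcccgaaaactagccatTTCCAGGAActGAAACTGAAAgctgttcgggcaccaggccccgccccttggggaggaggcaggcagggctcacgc
Gbp2, chr3:142620563-142620662, plus strand: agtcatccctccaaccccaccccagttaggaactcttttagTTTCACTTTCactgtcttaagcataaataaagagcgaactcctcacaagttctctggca
Irf1, chr11:53769914-53770013, plus strand: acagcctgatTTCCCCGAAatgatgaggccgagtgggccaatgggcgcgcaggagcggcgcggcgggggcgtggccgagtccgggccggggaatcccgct
Socs1, chr16:10785537-10785636, minus strand: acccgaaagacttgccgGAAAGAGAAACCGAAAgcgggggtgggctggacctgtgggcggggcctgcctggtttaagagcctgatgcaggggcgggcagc

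In the 3 IRG promoters shown, the GAS came first and the ISRE followed it, with the ISRE on the strand of the gene. Other IRG genes differed: Irgm1 had an ISRE without a GAS, and Ifi47 had neither. In Gbp2 the ISRE match lay on the opposite strand. A second listed Irf1 start, further downstream, had no match in its window. Across all genes, the share of promoters with either element went up with the size of the gain: 54.1% of 61 promoters of genes at least 16-fold higher, 32.0% of 100 at 4- to 16-fold, 22.7% of 273 at 2- to 4-fold and 9.13% of 12946 within 2-fold. It was 11.5% of 200 promoters of genes at least 2-fold lower and 11.3% of all promoters. The ISRE share followed that order throughout (41%, 26%, 11.4% and 2.52%), while the GAS share did not (27.9%, 9.0%, 13.6% and 6.90%). Within the 150 bases before the start, either element was in 44.3% of promoters past 16-fold and in 5.58% of all promoters. A match describes the letters only. Of 53 genes past 16-fold with a listed promoter, 29 had either element, and Ifi47, Xaf1 and Psmb9 were among those with neither in this window.

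**Figure D2:**
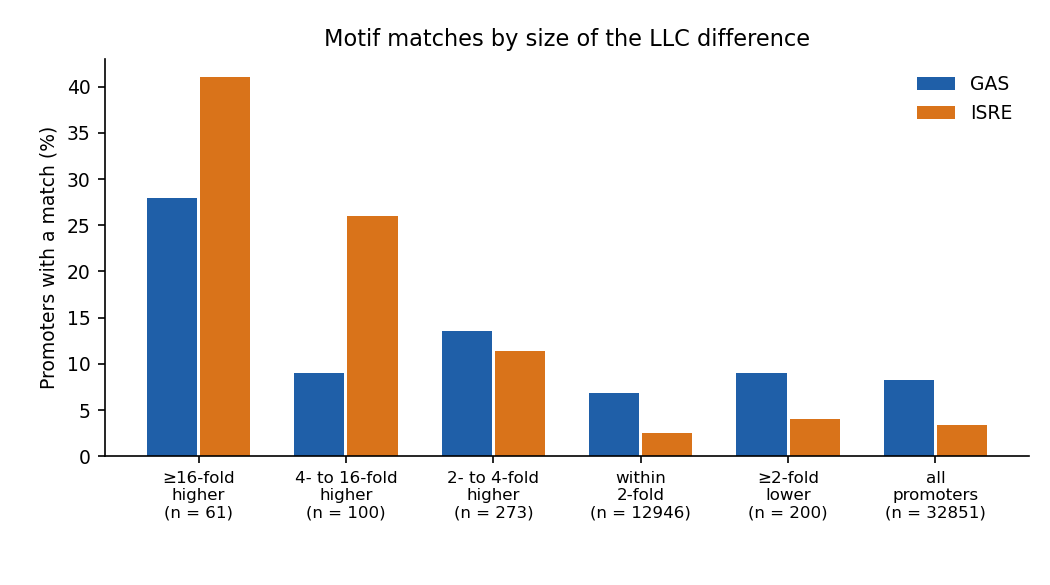
Percent of promoters with a GAS or an ISRE match in the 300-base window, by the size of the LLC difference, with the number of promoters under each class. ISRE bars step down from 41% in genes at least 16-fold higher to 2.52% in genes within 2-fold, and the lower genes (4.0%) lie near all promoters (3.44%).

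Each step of the MHC class I pathway was higher, from peptide cutting to the heavy chains. The immunoproteasome subunits, which replace constitutive ones and change which peptides are cut, had signals of 258 and 24067 for Psmb9 (93.4-fold), 215 and 17522 for Psmb8 (81.6-fold) and 11971 and 186124 for Psmb10 (15.5-fold). The PA28 activator subunits Psme1 (4.55-fold) and Psme2 (6.80-fold) were higher, and the assembly factor Pomp was at 0.64. None of 20 constitutive proteasome genes reached 2-fold. Their median was 0.26 and 19 of 20 lay above the median of all genes, led by Psma7 (0.76) and Psma5 (0.74). That median was −0.030 when the arrays were scaled to spike-in controls, but relative to all genes it stayed between 0.27 and 0.32 under the other scalings.

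Of 9 peptide loading genes 6 were at least 2-fold higher. The transporter subunit Tap1 went from 73.6 to 1844 (25.1-fold) and Tap2 from 6059 to 34335 (5.67-fold). The tapasin gene Tapbp went from 2511 to 28437 (11.3-fold), its relative Tapbpl from 140.2 to 2115 (15.1-fold), and the peptide trimmer Erap1 from 73.0 to 545 (7.47-fold). B2m, the light chain, was among the brightest signals with vehicle (75359) and reached 235377, a gain of 3.12-fold. The general chaperones Calr (0.15), Pdia3 (−0.12) and Canx (−0.29) were within 2-fold. Of 15 heavy chain genes 11 were at least 2-fold higher (median 2.28), such as H2-K1 from 11955 to 83206 (6.96-fold), H2-D1 from 17281 to 83648 (4.84-fold) and the nonclassical H2-T23 from 9909 to 72790 (7.35-fold). H2-Q8 (14.9-fold) had the highest value of the list, and Hfe (0.40), H2-Q4 (0.13), Cd1d1 (−0.067) and Mr1 (−0.37) were within 2-fold. H2 genes share sequence, so values of single members are uncertain.

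The invariant chain and the classical MHC class II chains were at low signals on both LLC arrays. The invariant chain Cd74 had signals of 8.67 and 36.6 (2.08 on the log2 scale), H2-Ab1 of 3.70 and 72.8 (at least 3.47), and the protease Ctss of 1.65 and 18.1 (at least 1.46), and all 3 fell short of 2-fold under normexp. H2-DMa (0.92), H2-Ob (0.68), H2-DMb1 (0.56), H2-Eb1 (0.33) and Ifi30 (−0.26) made up the rest of the 8 genes with a value. H2-Aa, H2-DMb2 and H2-Oa were not well above background on either array.

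**Figure D3:**
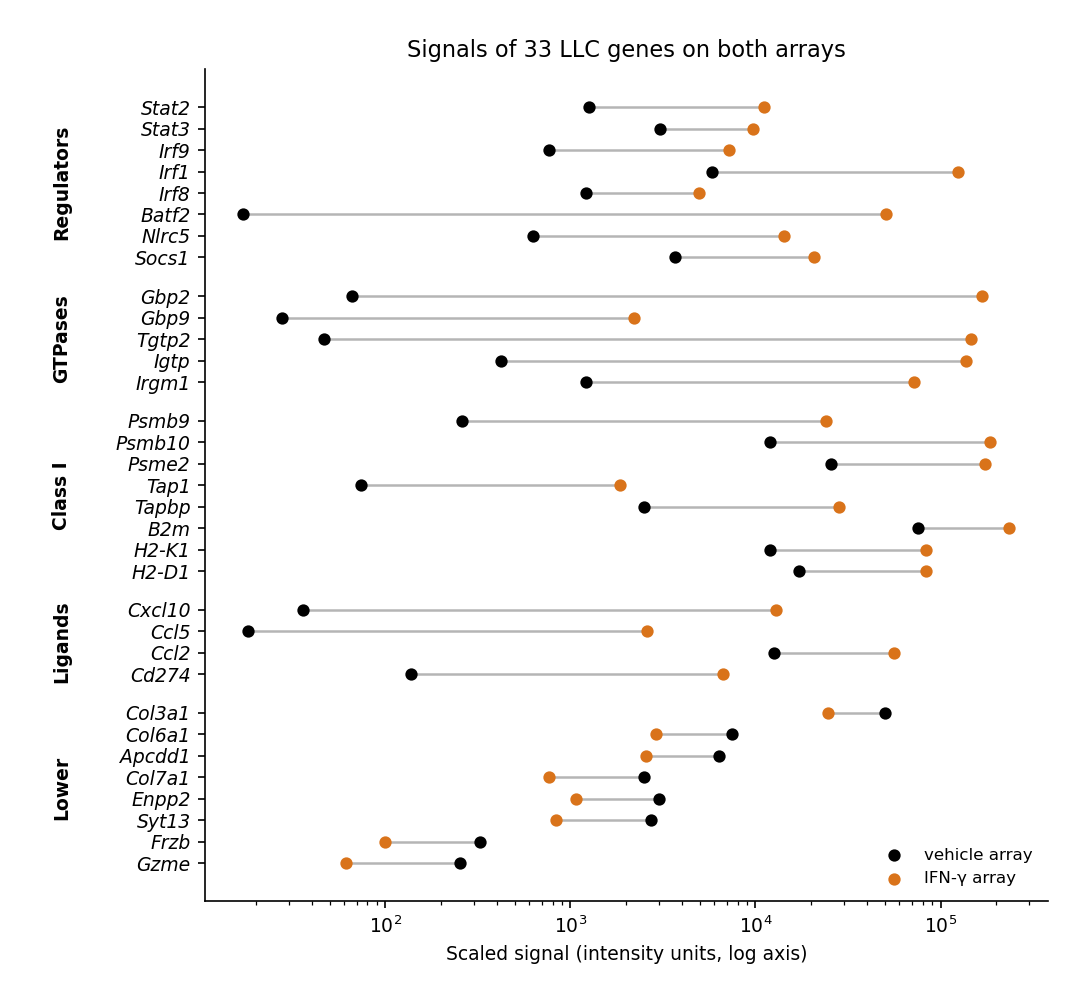
Scaled signals of 33 LLC genes on the vehicle array (black) and the IFN-γ array (orange), on a log axis, 1 array each, grouped by role. Signals of different genes come from different probes and are not comparable in level; within a row, gains run from 3.12-fold for B2m to 3116-fold for Tgtp2 and losses from 2.05-fold for Col3a1 to 4.11-fold for Gzme.

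Chemokines that draw T cells went from low to strong signals. Cxcl10 went from 35.7 to 12959 (363-fold), Ccl5 from 18.0 to 2583 (144-fold) and Cxcl9 from 1.5, not above background, to 1271 (at least 194-fold). Cxcl16 was within 2-fold at 0.55. The list of chemokines of myeloid cells, which also holds the colony-stimulating factors Csf1, Csf2 and Csf3, was measured for 8 of 18 genes. The monocyte chemokines Ccl2 (12585 to 55929, 4.44-fold) and Ccl7 (157 to 399.9, 2.54-fold) and the neutrophil chemokine Cxcl1 (274 to 867, 3.17-fold) were higher. Ppbp, a platelet basic protein, was 3.42-fold lower at 159 and 46.4, a call lost under normexp. Csf1 (0.41), Cxcl5 (−0.24) and Ccl9 (−0.39) were within 2-fold.

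Ligands and decoys that face immune cells included Cd274 (PD-L1), from 137 to 6634 (48.3-fold), and Clec2d, a ligand of an inhibitory natural killer receptor, from 101 to 1051 (10.4-fold). The IL-18 decoy Il18bp went from 58.1 to 1639 (28.2-fold), with Il18 itself at 0.99, just under 2-fold. Tnfsf13b (BAFF) and Il15 were higher by bounds of at least 9.24-fold and 3.36-fold at signals under 100 on the IFN-γ array, both under 2-fold with normexp. Cd47 (0.61), Pvr (0.52), Cd80 (0.36), Lgals9 (0.30), Nectin2 (0.28) and Cd276 (−0.44) were within 2-fold, and so were Vcam1 (−0.10), Ulbp1 (−0.065) and Raet1e (−0.006). Pdcd1lg2, Cd86, Icam1, Il6, Tnf, Il1b and Ifnb1 were not well above background on either array.

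Antiviral families held many higher members, in numbers that depended on the processing. Of 7 OAS genes, which make the activator of RNase L, 6 were at least 2-fold higher (median 4.59). Among them were Oasl2 at least 807-fold, Oas1a from 32.7 to 2886 (88.3-fold) and Oas3 from 11.5 to 276 (24.1-fold). Over the 5 OAS genes measured on both arrays the median was 1.62. Of 9 IFIT and IFITM genes 5 were higher, among them Ifit3 (28.4 to 258, 9.07-fold) and the entry inhibitor Ifitm3 (36869.5 to 103187, 2.80-fold), while Ifit2 (0.10) and Ifitm2 (−0.095) were not. Under normexp 4 of the OAS genes and 2 of the IFIT and IFITM genes stayed past 2-fold. Of 15 sensors 8 were higher. Among them, Zbp1, which recognises Z-form nucleic acid, went from 3.54 to 8763 (at least 1335-fold, and 7.28 on the log2 scale by another probe), Ifih1 (MDA5) was at least 41.2-fold higher, and Ddx58 (RIG-I) went from 1115 to 5809 (5.21-fold). Of 20 restriction factors 11 were higher, including the virion tether Bst2 (4560 to 50256, 11.0-fold), Rtp4 (293 to 25406, 86.7-fold) and Samhd1 (13147 to 34464, 2.62-fold). Counted over genes measured on both arrays, 8 restriction factors and 6 of the sensors, in place of 8, were higher.

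Genes that attach modifiers to proteins formed another large group. ISG15 conjugation was higher from modifier to protease: Isg15 (525 to 17754, 33.8-fold), its activating enzyme Uba7 (384 to 8454, 22-fold), the conjugating enzyme Ube2l6 (908 to 10565, 11.6-fold), the ligase Herc6 (154 to 558, 3.63-fold) and Usp18. The modifier FAT10 (Ubd) was at least 67.3-fold higher. In the list of the ADP-ribosyltransferase family and Dtx3l, 7 of 15 genes were higher. They were led by Parp14 (352 to 12272, 34.9-fold), Parp9 (673 to 10527, 15.6-fold) and its partner ligase Dtx3l (944 to 9989, 10.6-fold). Parp1 (−0.42), Parp2 (−0.080) and the tankyrases Tnks (0.36) and Tnks2 (−0.35) were within 2-fold. Of 15 TRIM and PML body genes 8 were higher, such as Trim21 (447 to 4195, 9.38-fold) and Trim34a (32.3 to 363, 11.2-fold, but 0.67 on the log2 scale by another probe). Pml was at −0.067. Sp110 counted as within 2-fold at 0.005 by the probe used, but another of its 3 probes gave 5.62.

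All 7 genes with a value in the list of the apolipoprotein L family and the pore-forming Mpeg1 were higher (median 6.10). They ran from Apol7b (1.76) to Apol9b (73.1 to 14411, 197-fold) and Mpeg1 (at least 499-fold by the probe used, and 1.83 on the log2 scale by another). Of the 7, 5 were measured on both arrays, while Apol6 and Mpeg1 had a value only through the IFN-γ array. Apol7c, Apol10a and Apol11b were not well above background on either array. The 3 Phf11 genes with a value (median 4.56, Phf11a by a bound) and 2 of 4 Schlafen genes, Slfn2 and Slfn8, were higher too. Normexp put Phf11b at 0.68 and Slfn8 at 0.59, and another Slfn8 probe gave 0.81. Of 14 complement genes 8 were higher: C4b (40.9 to 1205, 29.5-fold), C2 (413 to 2895, 7.01-fold) and C1s1 (676 to 4155, 6.14-fold) lie on the classical pathway, with C1ra at 2.45-fold, and C3 (0.47) and Cd59a (−0.83) were within 2-fold. Among 30 caspase and death genes 10 were higher. The inflammatory caspases Casp1 (317 to 3203, 10.1-fold) and Casp4 (155 to 1410.2, 9.09-fold) were higher, whereas the initiators Casp8 (−0.077) and Casp9 (−0.20) were within 2-fold. Fas went from 68.8 to 363 (5.28-fold), the TRAIL gene Tnfsf10 from 1.71 to 639.6 (at least 97.5-fold), and the executors Gsdmd (2.69-fold) and Mlkl (2.44-fold, under 2-fold with spike-in scaling) were higher. Of 12 genes listed for tryptophan, arginine, nitric oxide, itaconate and nucleoside enzymes 5 were higher: the uridine phosphorylase Upp1 (501 to 3573, 7.13-fold), the nitric oxide synthase Nos2 (250.4 to 937, 3.74-fold), the tryptophan-degrading Ido2 (9.22-fold), the itaconate enzyme Acod1 (at least 14.3-fold) and, at 1.02, Nampt. Nampt fell short of 2-fold under 4 alternatives, and normexp put Ido2 at 0.64 and Acod1 at 0.94.

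Some genes with large gains were neighbours. By RefSeq gene order, 11 runs of at least 3 neighbours, with at most 2 other genes between them, held 39 of the 193 genes past 4-fold (20.2%), and most of the 193 were in none. No such share was computed for other sets of genes, so it cannot be called high or low. The runs included Gbp5, Gbp7, Gbp3 and Gbp2 on chromosome 3 and Gbp8, Gbp9, Gbp4, Gbp10 and Gbp6 on chromosome 5. On chromosome 17, Psmb9, Tap1, Psmb8, Tap2 and H2-Ab1 formed a run of the MHC class II region, though H2-Ab1 was a bound that normexp put at 0.63. Smaller runs were Psme1, Psme2 and Irf9 on chromosome 14, Parp14, Dtx3l and Parp9 on chromosome 16, and Casp1, Casp4 and Casp12 on chromosome 9, though normexp put Casp12 at 0.56. Neighbouring family members can share probe sequence, so the members of a run are not independent.

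Large gains were also found outside the lists fixed for this comparison, in 73 of the 193 genes past 4-fold. The lists held the other 120 among only 750 genes with a value, of 13435 in all. Large gains were thus less frequent outside the lists than in them. In the stefin cluster of chromosome 16, singled out after its values were seen, which encodes cysteine protease inhibitors, 4 of 10 genes had a value. Csta2 went from 25.7 to 681 (26.4-fold), and Cstdc5, Cstdc4 and Stfa2l1 were higher by at least 29.6-fold, 17.4-fold and 10.6-fold in that order. The last 3 were below the background mark with vehicle, so they had a value only through the IFN-γ array. Normexp put Csta2 at 2.54, Cstdc5 at 1.87, Stfa2l1 at 1.06 and Cstdc4 at 0.89, the last under 2-fold. None of the 4 had a value in AB1-HA. Ly6a (Sca-1), a surface antigen, went from 4176 to 60699 (14.5-fold) and Ly6c1 from 20623 to 162803 (7.89-fold). Tubb3 and Osmr were also picked after their values were seen. The neuronal tubulin Tubb3 went from 385 to 7215 (18.8-fold), and the cytokine receptor Osmr from 489 to 3599 (7.36-fold).

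The cell cycle, p53, ERK feedback, lipid synthesis, glycolysis, oxidative phosphorylation, unfolded protein and ribosomal lists lay near the median of all genes. Of 30 cell cycle genes 2 were at least 2-fold higher (Aurkb 1.49, Ccne2 by a bound), both lost under normexp, and the median was −0.062. None of 19 p53 targets, 14 ERK feedback genes, 28 genes of cholesterol and fatty acid synthesis, 25 of glycolysis and hypoxia, 20 of oxidative phosphorylation, 19 of the unfolded protein response or 25 ribosomal protein genes passed 2-fold. Their medians ran from −0.15 (p53 targets, lipid synthesis) to 0.10 (ribosomal proteins), and the signs for oxidative phosphorylation, the unfolded protein response and ribosomal proteins turned under other scalings. The NF-kB list had a median of 0.36, with 13 of 17 genes above the median of all genes. Relative to all genes, its median stayed between 0.42 and 0.45 under the other scalings. Of the 17, 3 were higher (Zfp36 1.82, Bcl3 1.25, Nfkbiz 1.05), or 17.6% against 3.70% of all genes. Each lost its call under an alternative: Zfp36 under normexp (0.62), Bcl3 under spike-in scaling (0.96) and Nfkbiz under both and 2 others. Of 19 immediate-early genes 4 were higher, or 21.1% against 3.70% of all genes. They included Atf3 from 526 to 1919 (3.65-fold) and Egr1 at 1.11, under 2-fold after array median scaling. The median of that list was 0.15, and its sign turned under other scalings. The lists of NRF2 targets, glycerolipid synthesis and the muscle acetylcholine receptor each held 1 lower gene, dim in each case: Ggt1 (50.6 and 13.1), Mogat2 (101 and 18.2) and Chrnd (44.4 and 10.9). All 3 were lost under normexp, where Chrnd was at 0.22.

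**Figure D4:**
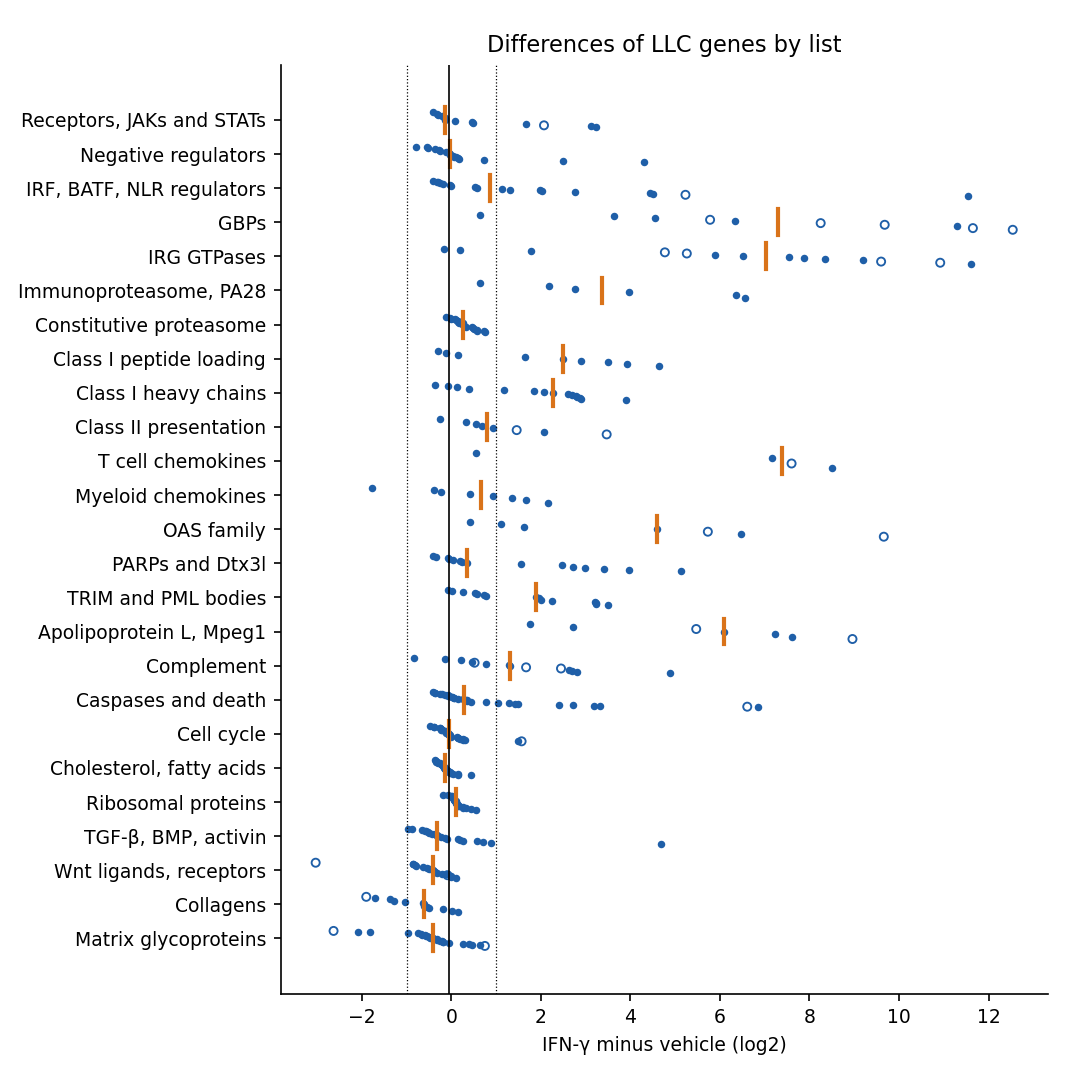
Difference between the IFN-γ and vehicle arrays of LLC (log2, 1 array each) for each gene with a value in 25 lists. Filled points were measured on both arrays, open points are bounds, orange bars are list medians, the solid line is the median of all genes (−0.059) and dotted lines mark 2-fold. Interferon target lists spread to the right, the cholesterol and fatty acid list stays near the line, and matrix and Wnt lists sit left of it.

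Among the 56 lists, that of the collagens had the most members past 2-fold on the lower side. It held 13 collagen genes with a value, 12 of them measured on both arrays. Of the 13, 5 passed 2-fold on the lower side, against 1.47% of all genes, and none on the higher. The median was −0.61, with 2 of 13 above the median of all genes. Col3a1, a fibrillar collagen, had signals of 50365 and 24546 (2.05-fold lower), Col6a1 of 7462 and 2888 (2.58-fold lower), its partner chain Col6a2 of 522 and 217 (2.41-fold lower) and the anchoring fibril collagen Col7a1 of 2492 and 766 (3.25-fold lower). Those 4 stayed at least 2-fold lower under every alternative tried. Col1a1 was at least 3.74-fold lower, from 29.5 to 3.40, and was lost under normexp. The basement membrane chains Col4a1 (−0.61) and Col4a2 (−0.54), and Col5a1 (−0.63) and Col18a1 (−0.60), were lower by less than 2-fold, and Col1a2 (0.020) and Col8a1 (0.16) were at or above 0.

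The matrix glycoprotein, Wnt and TGF-β lists also had medians below that of all genes, while the matrix protease list (0.25, with a sign that turned under other scalings) did not. Matrix glycoproteins had a median of −0.40 over 26 genes, with 6 above the median of all genes. Lrrc15 (−1.81), Dpt (−2.08) and Pi16 (at least 6.19-fold) were lower there at vehicle signals of 89.6, 46.6 and 48.9, and all 3 fell short of 2-fold under normexp. The bright members Fn1 (66042 and 56940.4), Sparc (−0.18) and Spp1 (−0.42) were within 2-fold. Among 16 matrix protease and inhibitor genes, the tissue plasminogen activator Plat went from 1586 to 588 (2.70-fold lower), while 2 serpins were higher, Serpina3f (1.61 to 2436, at least 371-fold, and 6.81 on the log2 scale by another probe) and Serpinb9 (264 to 1177, 4.47-fold), an inhibitor of granzyme B. The Wnt list had a median of −0.40, with 3 of 19 genes above that of all genes, and 1 past 2-fold: the antagonist Dkk1, at least 8.15-fold lower at signals of 64.3 and 2.34 and at −0.35 under normexp, which left the list with none. The related Dkk2 was at −0.85 with signals of 13462 and 7452. In the TGF-β, BMP and activin list (median −0.31 over 22 genes) Tgfb3 (−0.87), Bmp4 (−0.96), Tgfbr2 (−0.65) and Tgfb2 (−0.56) were within 2-fold. Against them stood Fst, the activin antagonist follistatin, which went from 502 to 12831 (25.6-fold higher). Relative to all genes, under the other scalings, the medians stayed between −0.56 and −0.54 for collagens, −0.39 and −0.34 for the Wnt list, and −0.25 and −0.24 for the TGF-β list.

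Most lower genes were dim. The median signal of the 197 lower genes was 53 with vehicle and 19.2 with IFN-γ, where the median gene had 1495 with vehicle, and 59 of the 197 (29.9%) were not above background on the IFN-γ array. Among the 6716 genes with a vehicle signal above 1496, a group set after the values were seen, 69 passed 2-fold on the higher side and 13 on the lower. Beside Col3a1, Col6a1, Col7a1 and Plat, the 13 were Apcdd1 (6319 and 2567), a Wnt inhibitor at the membrane, Enpp2 (3017 and 1069.9), which makes lysophosphatidic acid, Syt13 (2722 and 831), Rab7b (2711 and 1225), Kank3 (2674 and 1317), Tbx1 (2369 and 1126), Syn1 (1851 and 914), Trp53i11 (1763 and 663) and Iglon5 (1753 and 872). Of those 13, all but Syn1 stayed past 2-fold under normexp, a setting that left 21 of the 197. Kank3, Syn1 and Iglon5 fell short of 2-fold under cyclic loess, and Kank3 also by the mean over its probes. Dimmer lower genes that also stayed past 2-fold under normexp included the Wnt antagonist Frzb (326 and 99.1) and the granzyme Gzme (252 and 61.5).

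Markers of the cell types that the culture could hold were checked as well. Of 14 lung epithelial markers on the array 8 had a value and none passed 2-fold; the surfactant genes Sftpa1, Sftpb and Sftpc, Nkx2-1 and Epcam were below the background mark on both LLC arrays. Lamp3 (30073 and 35691) and Hopx (1097 and 1358) were well above it, as were the mesenchymal genes Vim (153799.7 and 173043), S100a4 (218790.1 and 178360.1) and Prrx1 (8478 and 12447). Of leukocyte markers, 3 of 11 for T and natural killer cells and 6 of 14 for myeloid and B cells had a value. Those measured included Itgam (3004 and 3416), Cd14 (1635 and 1499), Itgax (309 and 278), Lck (333 and 613) and Cd3e (274 and 355), while Ptprc, Cd3d, Cd3g, Cd8a, Adgre1 and Spi1 did not. Csf1r was 3.35-fold higher (171 and 574), with 0.28 by another probe. Of 12 mesenchymal markers 3 were lower (Col3a1, Col1a1 and the dim Pdgfrb, 31.8 and 14.7, whose sign turned to 0.29 under normexp), and of 5 mesothelial markers 1, Msln (144 and 53.5, and −0.62 under normexp). Of 9 endothelial markers 4 had a value, with Kdr at 1375 and 2718 (0.98), and Cdh5, Tek and Tie1 were not above background. The part of such cells in the results was not tested.

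Set beside AB1-HA, most LLC genes past 4-fold higher were higher there too, and few LLC genes past 2-fold lower were lower there. Those size limits differ, and the shared part of the higher genes was smaller at 2-fold. Of the 497 LLC genes past 2-fold higher, 438 had a value in AB1-HA, where 232 were at least 2-fold higher and 2 lower. Of the 193 LLC genes past 4-fold, 174 had a value in AB1-HA and 155 of them (89.1%) were at least 2-fold higher there, none lower; among genes within 2-fold in LLC, 0.846% were higher in AB1-HA. Of the 197 lower LLC genes, 103 had a value in AB1-HA, 5 (4.85%) were at least 2-fold lower there and 2 higher, and their AB1-HA median was −0.18; among genes within 2-fold in LLC, 0.679% were lower in AB1-HA. Of the 13 bright lower genes, 8 had a value in AB1-HA and 1, Kank3 (−1.55), was at least 2-fold lower; Apcdd1 was at 0.00, Enpp2 at 0.12, Col6a1 at −0.45 and Col7a1 at −0.88. Genes past 2-fold in LLC and within 2-fold in AB1-HA included Ccl5 (−0.026 in AB1-HA), Fst (0.45) and Nos2 (0.040). Differences between the lines have no replicate and were not tested.

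Small gains depended on the scaling. Scaling to array medians in place of 75th percentiles lowered every difference by 0.14, so that gains under 2.21-fold no longer counted: 90 of the 497 higher genes were lost, all from the 304 genes 2- to 4-fold higher, while all 193 genes past 4-fold stayed past 2-fold. The lower count then was 327, and higher genes made up 55.4% of genes past 2-fold in place of 71.6%; quantile normalization gave 59.8%. The 8 spike-in control targets above background on both arrays, RNAs added at labelling, had a median difference of 0.29 on the 75th percentile scale, so that the median gene was at −0.35 relative to them. Scaled to those targets, a setting chosen after the data were seen, 343 genes were higher and 494 lower (41% higher). Under that scaling each difference was lower by 0.29, so a gene with a difference between 0 and 0.29 has the opposite sign there. Of genes measured on both arrays, the dimmest 2150 (mean signal 8.87 to 92.5) held 127 higher and 82 lower genes, and the brightest 2150 (12538 to 554982) held 24 and 1.

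**Figure D5:**
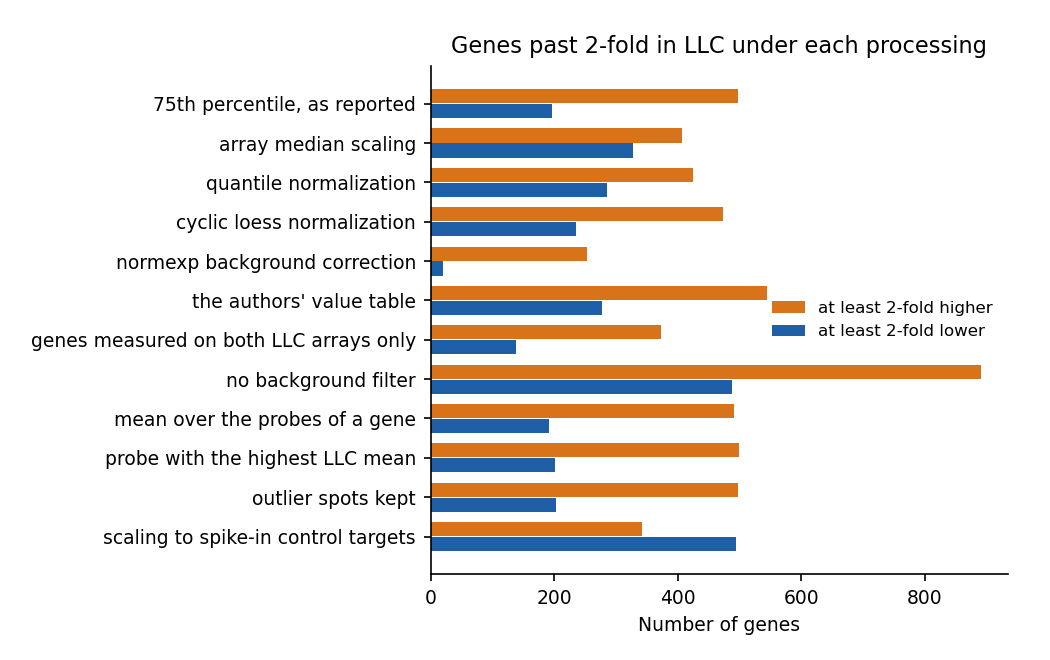
Number of LLC genes at least 2-fold higher (orange) and lower (blue) on the IFN-γ array under the reported processing and 11 alternatives. Higher genes run from 254 with normexp to 890 without a background filter, and lower genes from 21 to 494.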

How the data were processed

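Total RNA, Cy3-labelled, was hybridised to 1-colour Agilent arrays, and the deposited intensity values were made with Agilent Feature Extraction 10.7.1.1, which subtracted local background, per the file headers. The authors' deposited log2 value table served as an alternative; how it was made is not stated in the labels or headers, and it looked scaled per array and centred per probe. Control and outlier spots were left out, spots of a probe were averaged on the log2 scale, and each array was scaled to its 75th percentile over gene probes. Genes were named by RefSeq accession (26575 of 39429 gene probes matched), and each gene took its brightest detected probe over the 4 arrays. Where 1 array was not well above background, a bound used the lowest signal well above background there. Arrays give no counting depth, and their number limits the precision. Members, 56 gene lists and alternatives were chosen with earlier results of these data known. Named were the 30 largest differences per direction at most, the brightest bounds, list members past 2-fold, runs of neighbours and genes whose probes disagreed; members within 2-fold of lists other than receptors, regulators, peptide loading and markers were chosen after their values were seen, and some list members are not reported here. The scripts were tested on simulated data. Python 3.11.15, numpy 2.4.6, pandas 2.3.3, R 4.3.3 and limma 3.58.1 (normalization only) were used.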

Additional observations from a re-analysis of the deposited data

Results flagged for a closer look

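The following genes were at least 2-fold in opposite directions in LLC and AB1-HA; the difference was not tested, since each line had 1 array per condition. Tnfrsf13c, the BAFF receptor, was higher in LLC by a bound of 1.80 on the log2 scale (signals of 7.07 and 24.7) and lower in AB1-HA by a bound of −1.38. Il17c, an epithelial cytokine, was higher in LLC by a bound of 1.08 (3.82 and 13.8) and lower in AB1-HA by a bound of −1.22. Mlph, a linker of melanosome transport, was at −1.16 in LLC (48.9 and 21.9) and 1.17 in AB1-HA. Pcp4l1 was at −1.16 in LLC (53 and 23.8) and at least 1.12 in AB1-HA. All 4 had signals under 100 on both LLC arrays and fell under 2-fold in LLC with normexp: Tnfrsf13c at 0.57, Il17c at 0.16, Mlph at −0.039 and Pcp4l1 at −0.41. Il17c also fell short under array median, quantile, cyclic loess and spike-in scaling.

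Probes with no RefSeq gene in the table were outside the gene comparison and also held large differences. Among 5766 such probes with a value, 88 reached 4-fold higher in LLC with IFN-γ and none 4-fold lower. Over all 23351 probes with a value, these included, 332 were at least 4-fold higher and 10 lower, a similar share on the higher side. At 2-fold the counts were 358 higher and 48 lower, against 969 and 287 over all probes. The largest difference among the probes without a gene was 9.03 on the log2 scale.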

How the results depend on the processing

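In all, 11 alternative settings were tried. The 497 genes at least 2-fold higher became 254 with normexp and 890 without the background filter, and stayed within 1.5-fold of 497 otherwise. The 197 lower genes became 327 with array median scaling, 494 with spike-in scaling, 488 without the filter and 21 with normexp. The 193 genes past 4-fold higher became 115 with normexp. The 10 past 4-fold lower became 16 with array median scaling, 16 with quantile normalization, 25 with spike-in scaling, 37 in the authors' value table, 41 without the filter, 5 when measured on both arrays and 0 with normexp. The share of higher genes, 71.6%, became 55.4% (array median), 59.8% (quantile), 66.9% (cyclic loess), 92.4% (normexp), 66.2% (value table), 64.6% (no filter) and 41% (spike-in scaling, chosen after the data were seen). Past 2-fold under each of the 11 settings were 181 of the higher and 18 of the lower genes. Normexp turned the sign of Chrnd (0.22) and Pdgfrb (0.29). Genes not named above whose sign it turned included Fmo4 (−1.76 to 0.43), Lhx9 (−1.64 to 0.29), Iqgap2 (−1.64 to 0.15) and Tlr3 (1.65 to −0.092). The cause of these shifts was not tested. Most lower genes had dim signals, and their number also moved with the scaling. No paired analysis was possible because each condition had 1 array, and none could be left out.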
